A study of Homo sapiens with 14 samples.

Results

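Gene expression was compared between early and late labelled passages of WI-38 cells, a strain of normal fibroblasts from human lung, that had been immortalized with hTERT, the catalytic subunit of telomerase. Arrays were assigned by title alone. The early group comprised the 4 arrays titled A39 and A50 (hTERT A cells at passages 39 and 50, 2 arrays each), and the late group the 4 arrays titled A67 and A95 (hTERT A cells at passages 67 and 95, 2 arrays each). These were 8 of the 14 arrays of the series. The arrays of hTERT A cells at passage 58, of hTERT B cells at passage 96 and of primary cells at passage 19 were left out. All 8 arrays used were of hTERT cells in the same medium, re-seeded weekly at a constant cell number, and differ by labelled passage. The labels call the arrays of a passage biological duplicates but do not say whether they came from separate cultures. Whether the A cells are 1 clone is not stated either, so a p-value measures the spread between arrays of this culture series and not between independently immortalized lines.

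Human fibroblasts without telomerase shorten their telomeres at each division and finally stop dividing, with p53 and its target p21 (CDKN1A) and the inhibitor p16 (CDKN2A) holding the retinoblastoma pathway active. Active retinoblastoma proteins keep E2F-dependent genes of DNA replication and mitosis down. Cells given hTERT keep their telomeres and can be passaged for long, and the study's title concerns regions whose DNA methylation comes to differ at random in such a culture.

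On average, the late arrays had more RNA of DNA replication and mitosis genes and less of CDKN2A, of p53 targets and of several matrix and small nucleolar RNA genes. On the deposited log2 scale, where a difference of 1 is a factor of 2, 424 of 28869 rows of the array were higher and 553 were lower in the late arrays at an adjusted p under 0.05 (limma, Benjamini-Hochberg over all rows; 1.47% and 1.92% of rows, 977 or 3.38% in all). With the brightest row taken for each gene, 320 of 18377 genes were called higher and 449 lower (1.74% and 2.44%, 769 or 4.18% in all). The values of the 4 late arrays lay entirely above those of the 4 early arrays for 1053 genes (5.73%) and entirely below them for 1454 genes (7.91%); over rows these counts were 1440 (4.99%) and 1876 (6.5%). For a single gene, an exact permutation test of 4 arrays against 4 cannot give a two-sided p below 0.0286.

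These counts rest on how alike the arrays were, and the titles do not order that likeness. A39 replicate 2 and A50 replicate 1 correlated at 0.992 over all rows, more closely than either did with the array of its own title (0.98 and 0.977). A50 replicate 2 was closest to a late array, A67 replicate 1 (0.978). Both A67 arrays and A95 replicate 1 correlated with each other at 0.983 to 0.988. A95 replicate 2 correlated at 0.942 to 0.948 with the other late arrays and at 0.942 to 0.944 with the early ones. Across the whole series it was closest to an array of the other culture, hTERT B passage 96 replicate 1, at 0.986; that array correlated at 0.95 to 0.955 with the other 7 used here. A39 replicate 1 was likewise closer to primary replicate 2 (0.993), and A50 replicate 2 to hTERT A passage 58 replicate 1 (0.991), than to the array of its own title. The labels were kept as given, and what this likeness comes from was not tested. The values of A95 replicate 2 had a narrower spread (SD 1.89 against 2.00 to 2.02) and a higher lower quartile (6.32 against 6.11 to 6.24), and 4 of its rows were listed at 0 against 16 to 20 in the others.

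Leaving out 1 array changed the number of called rows from 977 to between 119 and 2466. The lowest counts came without A50 replicate 1 (119), A39 replicate 2 (121), A95 replicate 1 (139) and A67 replicate 2 (208). The count was 548 without A67 replicate 1, 949 without A50 replicate 2 and 980 without A39 replicate 1. With A39 replicate 2 and A50 replicate 1 averaged into 1 array it was 119. When the 14 arrays were fitted in 7 label groups and early and late were contrasted, no row passed, with 4080 rows at an unadjusted p under 0.05. The fit of the 8 arrays alone in 4 label groups called 215 rows. Of the 92 called genes picked by the naming rule, 16 kept their call whichever array was left out; they include CDC7, CMKLR1, GCNT2, ADAMTS5, LBH, MMP2, FOXF1 and PDGFRB.

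Of the 8 arrays, A95 replicate 2 was the only one whose omission raised the count of calls by more than 1.5 times. Without it, 2466 rows were called (8.54%), 1211 higher (4.19%) and 1255 lower (4.35%), and over genes 1947, 950 higher (5.17%) and 997 lower (5.43%), against 769 with it. Nearly all earlier calls stood: 318 of the 320 higher and 446 of the 449 lower were also called without it. These shared genes made up 99.4% of the higher calls with all 8 arrays and 33.5% of those without A95 replicate 2, and 99.3% and 44.7% of the lower calls. A further 632 genes were called higher and 551 lower only when it was left out.

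To place a late array, its value for each gene called in a fit without it was put on a scale running from 0 at the early mean to 1 at the mean of the other 3 late arrays. A67 replicate 2 had medians of 1.18 over 33 higher genes and 0.997 over 119 lower genes. A95 replicate 1 had medians of 1.07 over 14 higher genes and 1.09 over 78 lower genes. A67 replicate 1 had medians of 0.703 over 163 higher genes and 0.799 over 257 lower genes. A95 replicate 2 had a median of 0.405 over 950 higher genes (quartiles -0.0231 and 0.779) and of 0.618 over 997 lower genes (quartiles 0.217 and 1.1). It lay nearer to the late than to the early mean for 44.2% of the higher and 58.9% of the lower genes. For 453 of the 950 (47.7%) and 321 of the 997 (32.2%) it lay within the early range or beyond it. The array titled A95 replicate 2 was thus between the groups for rising genes and closer to late for falling ones, with a wide spread in both. The gene sets differ between the arrays. A95 replicate 2 took part in the calls and in the late mean used to place the other 3. Medians of different arrays are therefore not directly comparable, and the contrast between arrays was not tested.

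**Figure D1:**
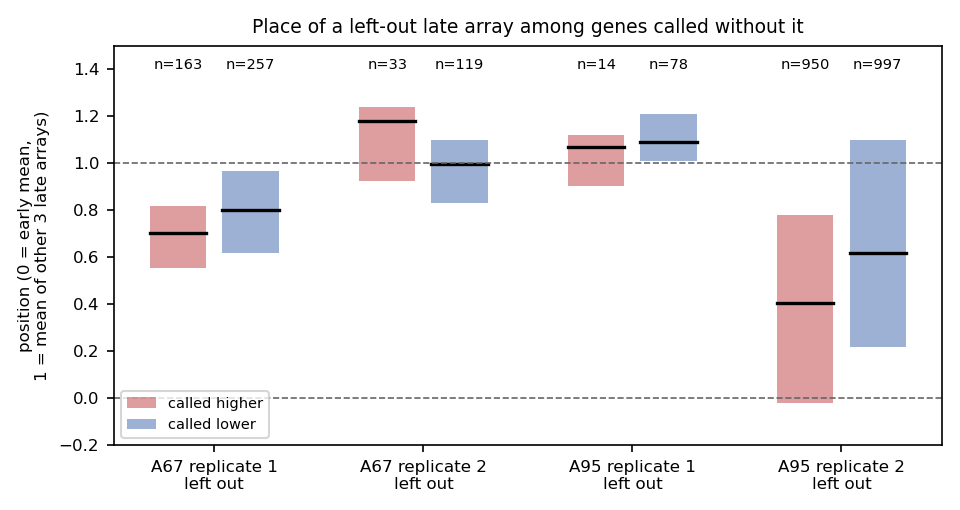
Position of each late array among genes called in a fit without it, for genes called higher and lower; the vertical axis has no unit, with 0 at the early mean and 1 at the mean of the other 3 late arrays. Lines are medians, boxes span the quartiles and n counts genes. A95 replicate 2 has medians of 0.405 and 0.618, below those of the other 3 arrays (0.703 to 1.18). The gene sets differ between arrays, and A95 replicate 2 took part in placing the other 3, so the medians are not directly comparable.

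TERT checks the hTERT label and read 11.62, 12.18, 11.98 and 10.67 in the early arrays and 11.04, 11.16, 11.18 and 12.13 in the late arrays. Array values are given here and below in the order A39 replicates 1 and 2, A50 replicates 1 and 2, then A67 replicates 1 and 2 and A95 replicates 1 and 2. All 8 arrays carried a high TERT value, the groups overlapped, and the difference of -0.24 ± 0.35 (SE, adjusted p = 0.804) was not called by limma. Among the arrays left out, TERT was 7.07 in primary replicate 1 and 11.7 in primary replicate 2, the array closest to A39 replicate 1. The check thus did not set primary replicate 2 apart from the hTERT arrays, and the reason was not tested. Of 15 genes of telomerase and of shelterin, the complex that caps telomeres, 3 rose and none fell (1.74% and 2.44% of all genes). They were WRAP53, which brings telomerase to Cajal bodies (0.85 ± 0.18 SE, adjusted p = 0.0412), ACD, the shelterin protein TPP1 (0.81 ± 0.15 SE, adjusted p = 0.0274), and DKC1, the pseudouridine synthase that binds telomerase RNA (0.69 ± 0.15 SE, adjusted p = 0.0424). DKC1 in A95 replicate 2 was 10.22, between the early arrays (9.92 to 10.05) and the other late arrays (10.75 to 10.85). Of the 3 telomere gene calls, 1 was lost without A39 replicate 1, 3 without A39 replicate 2, 3 without A50 replicate 1, 2 without A50 replicate 2, 2 without A67 replicate 1, 3 without A67 replicate 2 and 3 without A95 replicate 1 (adjusted p up to 0.144), and none stayed in every such fit.

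Of 34 genes of DNA replication and the entry into S phase, 16 rose and none fell, against 1.74% and 2.44% of all genes. All 34 had a positive difference, with a median of 1.21 against 0.02 over all genes. CCNE2, a cyclin that drives entry into S phase, read 8.40, 7.44, 7.52 and 8.42 in the early arrays and 9.42, 10.32, 10.30 and 8.82 in the late arrays. Its difference was 1.77 ± 0.38 (SE, adjusted p = 0.0395), and A95 replicate 2 held the lowest late value. ORC1, which marks replication origins, read 8.24, 7.29, 7.18 and 7.47 in the early arrays and 8.99, 9.60, 9.5 and 8.66 in the late arrays. CDC45, part of the helicase that opens DNA, read 8.86, 7.94, 7.77 and 8.09 in the early arrays and 9.52, 10.23, 10.14 and 9.28 in the late arrays. The late values of both lay above all early values, at 1.64 ± 0.28 (SE, adjusted p = 0.0193) for ORC1 and 1.63 ± 0.28 (SE, adjusted p = 0.0215) for CDC45. PRIM1, the primase that starts new strands, rose by 1.62 ± 0.27 (SE, adjusted p = 0.0184). CDC7, the kinase that fires origins, is not on this list but is among the largest rises; it rose by 1.92 ± 0.26 (SE, adjusted p = 0.0107) and was called whichever array was left out. Of the 16 replication calls on the list, 15 were lost without A39 replicate 2, 15 without A50 replicate 1, 6 without A50 replicate 2, 6 without A67 replicate 1, 14 without A67 replicate 2, 15 without A95 replicate 1 and 1 without A95 replicate 2 (adjusted p up to 0.16), and 1, the helicase subunit GINS2, stayed in every such fit.

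In the fit on 7 arrays that leaves out A95 replicate 2, 29 of the 34 replication genes were called and the median difference was 1.33. The median of A95 replicate 2 itself was 0.60 above early. Over the list its mean departure from the gene means was 0.0624, with -0.784 to -0.0429 in the early arrays and 0.381 to 0.93 in the other late arrays. A39 replicate 1 had the highest early level of these genes, at -0.0429. UHRF1, which brings DNMT1 to hemimethylated DNA and belongs to this list and to that of DNA methylation, read 10.19, 9.25, 9.12 and 8.99 in the early arrays and 10.13, 10.77, 10.72 and 10.92 in the late arrays. Its A39 replicate 1 value lay above the lowest late value, so the groups overlapped. UHRF1 rose by 1.25 ± 0.28 (SE, adjusted p = 0.0444), and without A95 replicate 2 the adjusted p was 0.0512.

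Of 30 mitotic genes 9 rose and none fell, against 1.74% and 2.44% of all genes. All 30 had a positive difference, with a median of 1.13. BUB1B, a spindle checkpoint kinase, read 9.20, 8.05, 8.13 and 8.81 in the early arrays and 10.09, 10.42, 10.42 and 9.72 in the late arrays. MKI67, the proliferation marker Ki-67, read 10.13, 8.79, 8.84 and 9.53 in the early arrays and 10.62, 10.91, 10.88 and 10.55 in the late arrays. Early and late values did not overlap for either gene, at 1.62 ± 0.27 (SE, adjusted p = 0.0196) for BUB1B and 1.42 ± 0.28 (SE, adjusted p = 0.0312) for MKI67. KIF2C, a microtubule-depolymerizing kinesin (1.37 ± 0.27 SE, adjusted p = 0.0292), and NCAPG, a condensin subunit (1.36 ± 0.26 SE, adjusted p = 0.0268), also rose. Of the 30, 28 were called without A95 replicate 2, at a median of 1.31, and A95 replicate 2 lay a median of 0.60 above early. Over the list, the groups overlapped. The mean departure from the gene means was 0.114 in A39 replicate 1, above the -0.0085 of A95 replicate 2. Of the 9 mitotic calls, 9 were lost without A39 replicate 2, 8 without A50 replicate 1, 3 without A50 replicate 2, 5 without A67 replicate 1, 7 without A67 replicate 2 and 9 without A95 replicate 1 (adjusted p up to 0.159), and none stayed in every such fit.

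Replication-dependent histones, a family looked at after the values were seen, are made in S phase from clustered genes without introns. Of 55 measured, 49 had a positive difference, with a median of 0.853. Called higher were 4 (H4C2, H4C3, H3C7 and H3C12), where 1.74% of all genes were. Without A95 replicate 2 the count was 18 and the median 1.19, whereas A95 replicate 2 lay a median of 0.215 above early. The groups overlapped over the family. The mean departure from the gene means was 0.364 in A39 replicate 1, above A67 replicate 1 (0.3) and A95 replicate 2 (-0.162). Members of a histone class are nearly identical and can share probes, so single genes are uncertain. Of the 4 histone calls, 4 were lost without A39 replicate 2, 4 without A50 replicate 1, 4 without A50 replicate 2, 3 without A67 replicate 1, 4 without A67 replicate 2 and 4 without A95 replicate 1 (adjusted p up to 0.16), and none stayed in every such fit.

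Promoter letters of the genes called higher were read from RefSeq (GRCh38.p14), over 250 bases before to 50 after the start, for the 248 of 320 genes with a window. The letters CCAAT, counted on either strand and so also as ATTGG, stood in 48% of them, in 36.3% of all 14208 genes with a window and in 34.7% of the 331 genes called lower with one. Among the 25 called replication and mitosis genes, 21 had a window and 71.4% of these held the letters. For TTTGAA, the shares were 22.2% of genes called higher, 11.9% of all and 8.16% of genes called lower. TTCGAA stood in 3.23%, 1.67% and 1.21%, and TATAAA in 4.03%, 8.96% and 6.95%. The median ratio of observed to expected CpG was 0.887 in genes called higher, 0.8 in genes called lower and 0.775 in all. A match is a description of the letters and not a bound site. The following promoters of genes that rose together were chosen because they hold CCAAT or ATTGG, set in capitals, and each run gives the 250 bases before the start, 5′ to 3′ along the gene.
ORC1 promoter, GRCh38.p14, chr1:52404424-52404673, minus strand: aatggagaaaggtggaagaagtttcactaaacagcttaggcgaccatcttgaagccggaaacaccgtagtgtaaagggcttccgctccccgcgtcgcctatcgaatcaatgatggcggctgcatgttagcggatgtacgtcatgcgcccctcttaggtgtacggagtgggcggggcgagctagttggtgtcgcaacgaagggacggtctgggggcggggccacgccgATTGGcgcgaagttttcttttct
CDC45 promoter, GRCh38.p14, chr22:19479670-19479919, plus strand: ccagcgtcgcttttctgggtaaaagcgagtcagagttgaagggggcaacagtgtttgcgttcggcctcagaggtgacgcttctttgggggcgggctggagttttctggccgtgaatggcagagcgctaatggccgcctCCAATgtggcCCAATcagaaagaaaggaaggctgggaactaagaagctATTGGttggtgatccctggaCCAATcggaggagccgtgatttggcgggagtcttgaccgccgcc
PRIM1 promoter, GRCh38.p14, chr12:56752324-56752573, minus strand: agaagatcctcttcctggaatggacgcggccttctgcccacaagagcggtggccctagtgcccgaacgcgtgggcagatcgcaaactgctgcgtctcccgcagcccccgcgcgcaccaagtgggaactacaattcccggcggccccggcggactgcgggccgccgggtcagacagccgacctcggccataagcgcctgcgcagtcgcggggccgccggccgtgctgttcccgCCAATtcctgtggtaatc
MKI67 promoter, GRCh38.p14, chr10:128126424-128126673, minus strand: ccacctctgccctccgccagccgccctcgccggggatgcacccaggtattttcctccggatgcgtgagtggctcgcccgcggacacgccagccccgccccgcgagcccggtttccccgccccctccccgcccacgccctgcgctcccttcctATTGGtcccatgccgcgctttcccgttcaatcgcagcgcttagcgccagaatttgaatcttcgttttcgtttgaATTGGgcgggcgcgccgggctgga
CDC45 carries 4 such matches and MKI67 2, and ORC1 and PRIM1 carry 1 each.

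Among 9 inhibitors and retinoblastoma family genes, 1 rose and 2 fell, against 1.74% and 2.44% of all genes. CDKN2A read 9.25, 9.59, 9.30 and 9.46 in the early arrays and 7.85, 6.33, 6.54 and 7.84 in the late arrays. Every late array was below every early array, with A67 replicate 1 and A95 replicate 2 nearest to early, at -2.26 ± 0.35 (SE, adjusted p = 0.015). The row is named for the gene and does not say which of its transcripts, p16 or ARF, it measures. CDKN1A, the p53 target p21, read 11.11, 11.70, 11.65 and 11.52 in the early arrays and 10.66, 10.38, 10.33 and 10.68 in the late arrays, at -0.98 ± 0.16 (SE, adjusted p = 0.0165). RBL1, the retinoblastoma relative p107, rose by 1.46 ± 0.31 (SE, adjusted p = 0.0405). CDKN2B, the neighbour of CDKN2A that encodes p15, lay at 9.41 to 9.68 in the early and 9.13 to 9.73 in the late arrays and was not called (-0.01 ± 0.15 SE, adjusted p = 0.98). RB1 was not called either (0.41 ± 0.16 SE, adjusted p = 0.223). Of the 3 inhibitor calls, 3 were lost without A39 replicate 2, 3 without A50 replicate 1, 1 without A50 replicate 2, 1 without A67 replicate 1, 2 without A67 replicate 2 and 3 without A95 replicate 1 (adjusted p up to 0.14), and none stayed in every such fit.

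Of 25 p53 target genes, 8 fell and none rose, against 2.44% and 1.74% of all genes. A negative difference was seen for 23, with a list median of -0.48. Beside CDKN1A, TP53INP1, which promotes autophagy and cell death under stress, read 8.71, 9.77, 9.71 and 9.69 in the early arrays and 8.30, 7.74, 7.49 and 8.27 in the late arrays. The late values were all lower, at -1.52 ± 0.28 (SE, adjusted p = 0.0243). SESN2, a sestrin that restrains mTORC1 (-1.22 ± 0.19 SE, adjusted p = 0.0165), and ZMAT3, an RNA-binding target of p53 (-1.09 ± 0.17 SE, adjusted p = 0.0144), fell too. MDM2, SESN1, TNFRSF10B and RRM2B were the other members called. A95 replicate 2 lay with the late arrays here: its median difference from early was -0.57, against -0.473 for the other 3, and it stood nearer to late for 9 of the 11 members called without it. Of the 8 p53 target calls, 1 was lost without A39 replicate 1, 8 without A39 replicate 2, 8 without A50 replicate 1, 2 without A50 replicate 2, 1 without A67 replicate 1, 7 without A67 replicate 2 and 8 without A95 replicate 1 (adjusted p up to 0.156), and none stayed in every such fit.

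Of 25 genes induced when proteins misfold or amino acids run short, 3 fell and none rose, against 2.44% and 1.74% of all genes. The median difference of the list was -0.463. DDIT4, an mTORC1 inhibitor induced by stress and low oxygen, read 8.51, 7.93, 8.01 and 7.52 in the early arrays and 6.4, 5.90, 6.19 and 6.89 in the late arrays. ASNS, asparagine synthetase and a target of ATF4, read 11.01, 10.60, 10.77 and 10.04 in the early arrays and 9.17, 9.22, 9.17 and 9.35 in the late arrays. Early and late did not overlap for either gene, at -1.65 ± 0.25 (SE, adjusted p = 0.0143) for DDIT4 and -1.38 ± 0.19 (SE, adjusted p = 0.0114) for ASNS, and SESN2 was the third member called. Leaving out A95 replicate 2 gave 8 called members, and it lay nearer to late for 3 of them. Of the 3 stress response calls, 3 were lost without A39 replicate 2, 3 without A50 replicate 1, 1 without A67 replicate 2 and 2 without A95 replicate 1 (adjusted p up to 0.0732), and none stayed in every such fit.

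The 12 largest rises among genes whose groups do not overlap had differences of 1.92 to 2.61. SLCO1B3, an organic anion transporter best known from liver, read 4.57, 4.89, 4.57 and 5.08 in the early arrays and 6.86, 8.46, 8.24 and 5.99 in the late arrays. A95 replicate 2 was the lowest late array for it, at 2.61 ± 0.49 (SE, adjusted p = 0.0268). CMKLR1, the receptor of chemerin, read 5.72, 5.65, 5.99 and 6.17 in the early arrays and 7.63, 8.76, 8.53 and 8.65 in the late arrays. GCNT2, which branches the I antigen on cell surface glycans, read 6.63, 7.16, 7.23 and 6.46 in the early arrays and 9.13, 9.55, 9.37 and 8.83 in the late arrays. Both were separated by more than 1 log2 in every pair of arrays across the groups, at 2.51 ± 0.25 (SE, adjusted p = 0.00326) for CMKLR1 and 2.35 ± 0.22 (SE, adjusted p = 0.00244) for GCNT2. HAS2, hyaluronan synthase, was highest in A95 replicate 2 (11.65) and rose by 2.19 ± 0.45 (SE, adjusted p = 0.0349). ACSL5, which activates long-chain fatty acids, was also highest there (9.59) and rose by 2.20 ± 0.45 (SE, adjusted p = 0.034).

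The other large rises were ST6GALNAC5, a ganglioside sialyltransferase (2.49 ± 0.47 SE, adjusted p = 0.0274), GABRB1, a GABA receptor subunit (2.40 ± 0.43 SE, adjusted p = 0.0232), ESM1, the secreted proteoglycan endocan (2.26 ± 0.45 SE, adjusted p = 0.0312), FAM111B (2.01 ± 0.31 SE, adjusted p = 0.0161), CNIH3, an auxiliary protein of AMPA receptors (1.92 ± 0.39 SE, adjusted p = 0.033), SSX1 and CDC7. SSX1 is a cancer-testis gene of the X chromosome and read 6.26, 6.04, 5.94 and 6.55 in the early arrays and 7.63, 8.96, 8.66 and 7.36 in the late arrays. It was the 1 called member of 20 germline and cancer-testis genes, at 1.96 ± 0.34 (SE, adjusted p = 0.0218), where 4.18% of all genes were called. Of the 20, 17 had a positive difference (median 0.165, or 0.0262 without A95 replicate 2 and 0.299 without A67 replicate 2). Of the 12 largest-rise calls, 4 were lost without A39 replicate 1, 9 without A39 replicate 2, 9 without A50 replicate 1, 1 without A50 replicate 2, 3 without A67 replicate 1, 9 without A67 replicate 2 and 9 without A95 replicate 1 (adjusted p up to 0.118), and 3 stayed in every such fit. SSX1 was not called without A39 replicate 2, A50 replicate 1, A67 replicate 2 or A95 replicate 1 (adjusted p up to 0.0863).

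Among the 12 largest falls, MGARP, a mitochondrial protein induced by low oxygen, read 10.75, 11.73, 11.70 and 10.13 in the early arrays and 8.67, 7.01, 7.12 and 7.97 in the late arrays. LBH, a transcription cofactor of limb and heart development, read 10.76, 11.14, 11.11 and 10.65 in the early arrays and 8.65, 8.03, 7.87 and 8.30 in the late arrays. ADAMTS5, a protease that cleaves aggrecan and versican, read 8.99, 9.63, 9.45 and 9.30 in the early arrays and 6.79, 6.42, 6.32 and 6.99 in the late arrays. All 3 genes were lower in every late than in every early array, at -3.39 ± 0.45 (SE, adjusted p = 0.00963) for MGARP, -2.70 ± 0.19 (SE, adjusted p = 0.000665) for LBH and -2.71 ± 0.19 (SE, adjusted p = 0.000665) for ADAMTS5. CYBA, the p22phox subunit of NADPH oxidase, fell by 2.93 ± 0.38 (SE, adjusted p = 0.00809). OLR1, a receptor of oxidized low-density lipoprotein, fell by 2.6 ± 0.29 (SE, adjusted p = 0.005). MGARP, LBH, ADAMTS5, CYBA and OLR1 were called whichever array was left out.

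MAN1A1, a Golgi mannosidase, fell less with A95 replicate 2 among the late arrays than without it. It read 9.70, 10.41, 10.45 and 10.00 in the early arrays and 6.59, 6.14, 5.92 and 9.20 in the late arrays. A95 replicate 2 was the late array closest to early by far. The difference of MAN1A1 was -3.18 ± 0.63 (SE, adjusted p = 0.0323), and without A95 replicate 2 it was -3.92 (adjusted p = 0.000754). The MAN1A1 call was lost whichever other array was left out (adjusted p up to 0.116). PDGFD, a ligand of PDGF receptors (-2.96 ± 0.56 SE, adjusted p = 0.028), RGCC, a regulator of the cell cycle and complement response (-2.65 ± 0.43 SE, adjusted p = 0.0166), and PDE1C, a calmodulin-dependent phosphodiesterase (-2.74 ± 0.62 SE, adjusted p = 0.0469), had their lowest early value in A50 replicate 2 (5.89, 8.24 and 6.30). GABARAPL3 fell by 2.52 ± 0.32 (SE, adjusted p = 0.00769); it is a near copy of the autophagy gene GABARAPL1, which was looked at after the values were seen and fell by 1.99 ± 0.26 (SE, adjusted p = 0.00924), and RNA of either may bind the probes of both. TSPAN12, a tetraspanin of Norrin signalling, likewise seen after the values, read 9.34, 9.64, 9.78 and 9.20 in the early arrays and 6.93, 7.34, 7.11 and 7.41 in the late arrays and fell by 2.29 ± 0.17 (SE, adjusted p = 0.000665). Of the 12 largest-fall calls, 3 were lost without A39 replicate 1, 5 without A39 replicate 2, 5 without A50 replicate 1, 1 without A50 replicate 2, 3 without A67 replicate 1, 5 without A67 replicate 2 and 5 without A95 replicate 1 (adjusted p up to 0.15), and 7 stayed in every such fit.

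**Figure D2:**
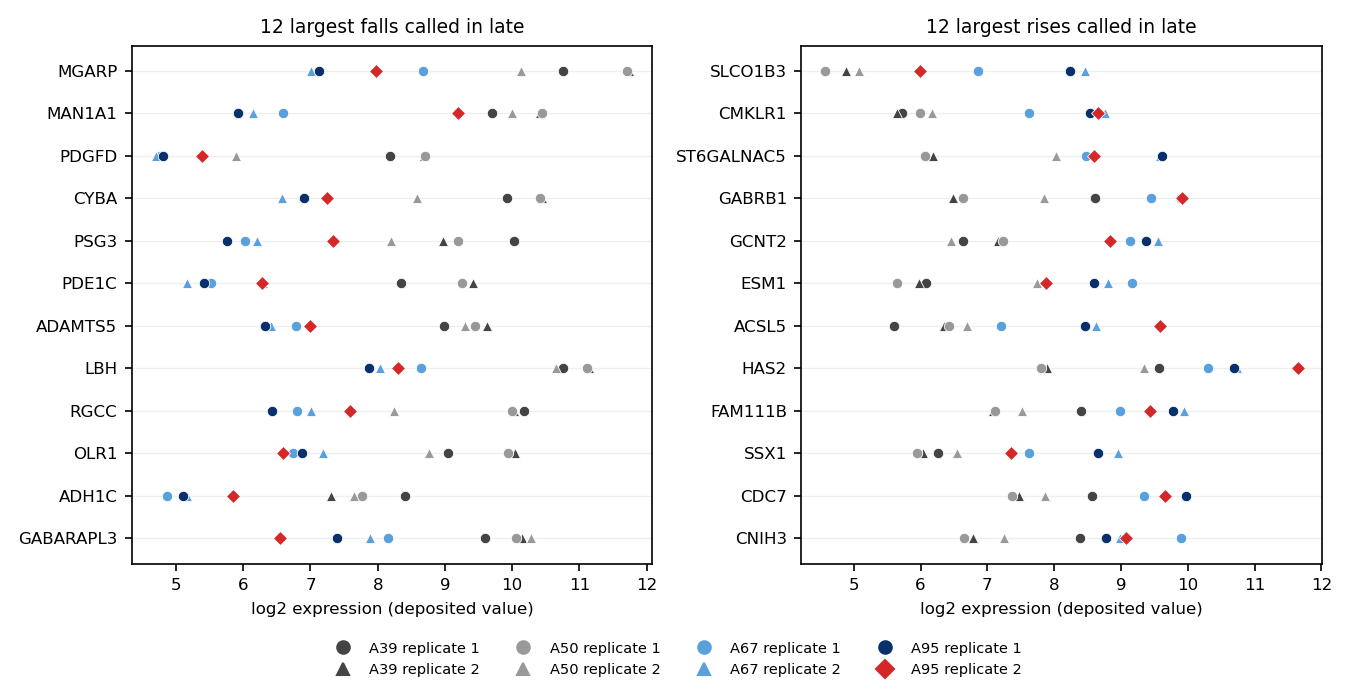
Deposited log2 expression of the 12 largest falls and 12 largest rises called in the late arrays, 1 point per array, early arrays in grey tones and late in blue or red. In each gene all late points lie on 1 side of all early points; the gap between the groups is smallest for PDE1C (0.02) and ESM1 (0.14), where A50 replicate 2 and A95 replicate 2 are the neighbouring points.

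Of 19 collagen genes 4 fell, against 2.44% of all genes. A negative difference was seen for 18, with a list median of -0.635. COL3A1, the fibrillar collagen of soft tissue, read 12.25, 12.05, 12.07 and 11.72 in the early arrays and 10.18, 10.64, 10.61 and 11.29 in the late arrays, at -1.34 ± 0.22 (SE, adjusted p = 0.0184), and A95 replicate 2 was its highest late array. COL8A1 (-0.96 ± 0.15 SE, adjusted p = 0.0165), COL5A2 (-0.95 ± 0.19 SE, adjusted p = 0.0306) and COL12A1 (-0.89 ± 0.17 SE, adjusted p = 0.0292) also fell. Leaving it out gave 9 called collagens, and A95 replicate 2 stood nearer to late for 3 of them. In the other late arrays the collagens were lowest in A67 replicate 1. Of the 4 collagen calls, 1 was lost without A39 replicate 1, 4 without A39 replicate 2, 4 without A50 replicate 1, 2 without A67 replicate 1, 3 without A67 replicate 2 and 4 without A95 replicate 1 (adjusted p up to 0.113), and none stayed in every such fit. 

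Of 29 proteoglycans and matrix glycoproteins 7 fell, against 2.44% of all genes. LUM, the keratan sulfate proteoglycan lumican, read 11.26, 10.91, 11.01 and 11.91 in the early arrays and 10.06, 9.95, 9.91 and 9.15 in the late arrays. SVEP1, a large adhesion protein, read 10.98, 11.39, 11.46 and 11.42 in the early arrays and 9.99, 9.81, 9.63 and 10.38 in the late arrays. LUM changed by -1.51 ± 0.26 (SE, adjusted p = 0.0215) and was lowest in A95 replicate 2, whereas SVEP1 changed by -1.36 ± 0.18 (SE, adjusted p = 0.00924) with A95 replicate 2 highest among the late arrays. LAMA4, a laminin chain (-1.31 ± 0.22 SE, adjusted p = 0.0193), and PODN, podocan (-1.08 ± 0.12 SE, adjusted p = 0.00513), fell, as did LAMB1, SPARC and SRPX. Over the whole list, the median difference from early was 0.06 in A95 replicate 2 and -0.259 in the other late arrays. A95 replicate 2 lay nearer to late for 7 of the 10 members called without it. Of the 7 glycoprotein calls, 1 was lost without A39 replicate 1, 5 without A39 replicate 2, 5 without A50 replicate 1, 1 without A50 replicate 2, 2 without A67 replicate 1, 4 without A67 replicate 2 and 5 without A95 replicate 1 (adjusted p up to 0.159), and 2 stayed in every such fit.

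Of 21 elastic fibre and microfibril genes 6 fell, against 2.44% of all genes. MFAP4, a microfibril-associated protein, read 9.69, 9.78, 9.65 and 9.86 in the early arrays and 8.06, 8.50, 8.17 and 8.42 in the late arrays, at -1.46 ± 0.13 (SE, adjusted p = 0.00221). EFEMP1, fibulin-3 (-1.07 ± 0.17 SE, adjusted p = 0.0157), LTBP3, which holds latent TGF-beta (-0.84 ± 0.17 SE, adjusted p = 0.0357), and LOXL2, a collagen cross-linking oxidase (-0.74 ± 0.16 SE, adjusted p = 0.0421), fell with LTBP4 and EFEMP2. The 6 were the same number called without A95 replicate 2, which lay nearer to late for all 6. Over the whole list, its median difference from early was -0.0575, against -0.224 for the other late arrays. Of the 6 elastic fibre calls, 1 was lost without A39 replicate 1, 5 without A39 replicate 2, 5 without A50 replicate 1, 1 without A50 replicate 2, 2 without A67 replicate 1, 5 without A67 replicate 2 and 5 without A95 replicate 1 (adjusted p up to 0.147), and 1 stayed in every such fit. 

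Of 20 matrix-degrading enzymes and inhibitors, 3 fell, against 2.44% of all genes. Beside ADAMTS5 these were MMP2, gelatinase A, which read 11.34, 11.73, 11.61 and 11.37 in the early arrays and 10.43, 10.61, 10.60 and 10.50 in the late arrays, and MMP14, which activates MMP2 (-0.57 ± 0.12 SE, adjusted p = 0.0389). MMP2 changed by -0.98 ± 0.12 (SE, adjusted p = 0.00738) and was called whichever array was left out. TIMP3, an inhibitor, was not called (-1.61). Over the whole list, the median difference from early was 0.0612 in A95 replicate 2 and -0.344 in the other late arrays. A95 replicate 2 lay nearer to late for 4 of the 6 members called without it. Of the 3 protease calls, 1 was lost without A39 replicate 1, 1 without A39 replicate 2, 1 without A50 replicate 1, 1 without A67 replicate 1, 1 without A67 replicate 2 and 1 without A95 replicate 1 (adjusted p up to 0.143), and 2 stayed in every such fit.

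Among contractile genes MYLK, myosin light chain kinase (-0.79 ± 0.13 SE, adjusted p = 0.0171), was the 1 call of 17, where 4.18% of all genes were called. No gene of 20 in the TGF-beta list was called, and a list of this size can hold none at that share. TGFB2 lay at -2.07 ± 0.51 (SE, adjusted p = 0.0606) with A95 replicate 2 (8.34) inside the early range, and TGFBI at -1.19 ± 0.27 (SE, adjusted p = 0.0509). MYLK was not called without A39 replicate 2, A50 replicate 1, A67 replicate 2 or A95 replicate 1 (adjusted p up to 0.0791).

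The fibroblast identity markers checked the labelled cell type. Of 20 markers 5 fell and none rose, against 2.44% and 1.74% of all genes. The 5 were LUM, COL3A1, THY1, PDGFRB and P4HA1. VIM, the intermediate filament vimentin, lay between 12.55 and 13.05 in all 8 arrays, and COL1A2 between 12.47 and 13.40. THY1, a surface glycoprotein of fibroblasts, read 11.77, 12.03, 11.93 and 11.39 in the early arrays and 10.47, 10.67, 10.65 and 10.82 in the late arrays, at -1.13 ± 0.16 (SE, adjusted p = 0.0107). PDGFRB, a PDGF receptor, changed by -0.82 ± 0.10 (SE, adjusted p = 0.00768). In bulk RNA, fewer cells of a kind and less RNA per cell cannot be told apart. Of the 5 fibroblast marker calls, 1 was lost without A39 replicate 1, 3 without A39 replicate 2, 4 without A50 replicate 1, 1 without A50 replicate 2, 1 without A67 replicate 1, 3 without A67 replicate 2 and 3 without A95 replicate 1 (adjusted p up to 0.155), and 1 stayed in every such fit.

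Markers of other cell types gave 0 calls among 12 endothelial, 13 blood, 16 epithelial, 13 neural, 16 muscle and 14 adipocyte, cartilage and bone genes. There were 0 among 13 genes of RNA quality and handling stress. Over all genes 4.18% were called (769 of 18377), so a list of this size can hold none at that share. The part of these markers in the results was not tested. Summed over a list, the mean level per gene ranged, in early and in late arrays, from 7.21 to 7.45 and 7.27 to 7.4 for endothelial, 6.76 to 6.91 and 6.54 to 6.84 for blood, and 7.38 to 7.81 and 7.44 to 7.74 for epithelial markers. The same ranges were 6.86 to 7.02 and 6.84 to 7.05 for neural, 6.81 to 6.97 and 6.85 to 7.13 for muscle, 7.2 to 7.29 and 7.1 to 7.37 for adipocyte, cartilage and bone, and 10.6 to 10.8 and 10.6 to 10.9 for RNA quality genes. The groups overlapped in each. The largest single differences were TEK at -1.54 ± 0.58 (SE, adjusted p = 0.204), HBB at -1.36 ± 0.43 (SE, adjusted p = 0.131), ACTC1 at 1.29 ± 0.90 (SE, adjusted p = 0.544) and KRT19 at -1.16 ± 0.35 (SE, adjusted p = 0.118), none of them called. Values of MS4A1 (-0.31 ± 0.33 SE, adjusted p = 0.717), PECAM1 (0.49 ± 0.40 SE, adjusted p = 0.609), KRT18 (-0.70 ± 0.36 SE, adjusted p = 0.377), SNAP25 (0.51 ± 0.16 SE, adjusted p = 0.134), S100B (-0.28 ± 0.18 SE, adjusted p = 0.501), MYH3 (0.39 ± 0.35 SE, adjusted p = 0.653), PPARG (-0.63 ± 0.15 SE, adjusted p = 0.0539), FABP4 (0.42 ± 0.80 SE, adjusted p = 0.856), JUNB (-0.62 ± 0.21 SE, adjusted p = 0.152) and EGR1 (-0.55 ± 0.33 SE, adjusted p = 0.465) were not called either. The table holds no detection calls, so which of these markers were expressed is not known.

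A95 replicate 2 departed from the other late arrays in the interferon response. Interferon-stimulated genes encode sensors and effectors against viruses. Of 25 genes 3 fell, where 2.44% of all genes did. A negative difference was seen for 19, with a list median of -0.705, or -0.461 without A67 replicate 1. Without A95 replicate 2, 10 were called lower and the median was -1.06, whereas A95 replicate 2 lay a median of 0.20 above early and was nearer to late for 3 of the 10. IFITM1, a membrane protein that blocks viral entry, read 10.45, 9.90, 10.07 and 7.13 in the early arrays and 5.80, 5.95, 5.70 and 8.06 in the late arrays. It was not called with all arrays (-3.01 ± 0.77 SE, adjusted p = 0.0696) and changed by -3.57 (adjusted p = 0.0223) without A95 replicate 2. IFIT2 (-1.76 ± 0.37 SE, adjusted p = 0.0394) and IFIT3 (-1.20 ± 0.22 SE, adjusted p = 0.0244), which bind viral RNA, and RIGI, an RNA sensor (-1.20 ± 0.21 SE, adjusted p = 0.0221), were the 3 called. The early arrays also split: A50 replicate 2 had a list departure of -0.419 against 0.636 to 0.846 in the other 3. A95 replicate 2 had 0.323 against -0.728 to -0.622. Of the 3 interferon calls, 1 was lost without A39 replicate 1, 3 without A39 replicate 2, 3 without A50 replicate 1, 2 without A67 replicate 1, 3 without A67 replicate 2 and 3 without A95 replicate 1 (adjusted p up to 0.135), and none stayed in every such fit.

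In the presentation of antigen by MHC class I, 1 of 10 genes fell, where 2.44% of all genes did. B2M, the light chain of the complex, read 12.24, 12.23, 12.31 and 12.15 in the early arrays and 11.57, 11.56, 11.59 and 11.41 in the late arrays, at -0.70 ± 0.10 (SE, adjusted p = 0.0117), and was lowest in A95 replicate 2. The list as a whole lay a median of 0.335 above early in A95 replicate 2 and -0.28 in the other late arrays. B2M was not called without A39 replicate 2 or A50 replicate 1 (adjusted p up to 0.0602).

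Of 25 senescence-associated secreted factors 1 fell, near the 2.44% of all genes that did: IGFBP7, an IGF-binding protein (-0.67 ± 0.11 SE, adjusted p = 0.0182); IL6 was not called at -2.05 and HGF not at -1.98. Of 13 IGF axis genes 2 fell, where 2.44% of all genes did: IGFBP7 and IGFBP4 (-0.74 ± 0.16 SE, adjusted p = 0.0402). Of 23 Wnt ligands and antagonists 2 fell, where 2.44% of all genes did: DKK3 (-1.26 ± 0.19 SE, adjusted p = 0.0135) and WNT5A (-1.04 ± 0.23 SE, adjusted p = 0.0422). DKK3 was lowest in A95 replicate 2 (10.12), and WNT5A highest there among late arrays (10.60). IGFBP7 was not called without A39 replicate 2, A50 replicate 1, A67 replicate 2 or A95 replicate 1 (adjusted p up to 0.0809). Of the 2 IGF calls, 2 were lost without A39 replicate 2, 2 without A50 replicate 1, 1 without A50 replicate 2, 1 without A67 replicate 1, 2 without A67 replicate 2 and 2 without A95 replicate 1 (adjusted p up to 0.143), and none stayed in every such fit. Of the 2 Wnt calls, 1 was lost without A39 replicate 1, 2 without A39 replicate 2, 2 without A50 replicate 1, 1 without A50 replicate 2, 1 without A67 replicate 1, 1 without A67 replicate 2 and 2 without A95 replicate 1 (adjusted p up to 0.143), and none stayed in every such fit.

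Of 19 FGF ligands, receptors and feedback inhibitors 1 rose and 2 fell, where 1.74% and 2.44% of all genes did. FGF7, a growth factor for epithelium, read 10.52, 10.61, 10.58 and 10.13 in the early arrays and 9.02, 9.12, 9.11 and 7.46 in the late arrays, with its lowest value in A95 replicate 2, and changed by -1.78 ± 0.35 (SE, adjusted p = 0.0306). SPRY1, an inhibitor of receptor signalling, read 8.52, 8.38, 8.50 and 7.66 in the early arrays and 6.99, 7.12, 7.01 and 7.73 in the late arrays. Its groups overlapped, and it changed by -1.05 ± 0.23 (SE, adjusted p = 0.0452). FGF1 rose by 0.52 ± 0.10 (SE, adjusted p = 0.0304). Of the 3 FGF calls, 2 were lost without A39 replicate 1, 3 without A39 replicate 2, 3 without A50 replicate 1, 3 without A67 replicate 1, 3 without A67 replicate 2 and 3 without A95 replicate 1 (adjusted p up to 0.151), and none stayed in every such fit.

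Of 31 transcription factors of lung mesenchyme 3 fell, where 2.44% of all genes did. They were FOXF1 (-0.85 ± 0.11 SE, adjusted p = 0.00769), TCF21 (-0.92 ± 0.20 SE, adjusted p = 0.0423) and ZEB1 (-0.83 ± 0.18 SE, adjusted p = 0.0395). FOXF1, needed for the mesenchyme of lung vessels, read 10.95, 11.08, 10.95 and 10.74 in the early arrays and 10.06, 10.16, 10.05 and 10.04 in the late arrays and was called whichever array was left out. Of 20 HOX genes none was called, where 4.18% of all genes were, so a list of this size can hold none. HOXD10 lay at 0.85 ± 0.30 (SE, adjusted p = 0.174) and HOXB2 at 0.53 ± 0.14 (SE, adjusted p = 0.0793). Of the 3 transcription factor calls, 2 were lost without A39 replicate 1, 2 without A39 replicate 2, 2 without A50 replicate 1, 1 without A50 replicate 2, 2 without A67 replicate 1, 2 without A67 replicate 2 and 2 without A95 replicate 1 (adjusted p up to 0.141), and 1 stayed in every such fit.

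Of 21 polycomb genes 3 rose and none fell, where 1.74% and 2.44% of all genes did. EZH2, the methyltransferase that marks H3K27, read 9.12, 8.26, 8.33 and 8.48 in the early arrays and 9.60, 10.10, 10.15 and 9.71 in the late arrays, at 1.34 ± 0.21 (SE, adjusted p = 0.0165). PHF19 (0.93 ± 0.16 SE, adjusted p = 0.0201) and EED (0.65 ± 0.14 SE, adjusted p = 0.0416), partners of EZH2, rose as well, and A95 replicate 2 was nearer to late for 3 of the 5 called without it. UHRF1 was the 1 of 16 DNA methylation genes called, where 4.18% of all genes were. DNMT1, the maintenance methyltransferase, read 10.29, 9.88, 9.90 and 9.64 in the early arrays and 10.41, 10.92, 10.86 and 10.18 in the late arrays. It was not called with all arrays (0.67 ± 0.20 SE, adjusted p = 0.115) and changed by 0.80 (adjusted p = 0.0339) without A95 replicate 2. Of the 3 polycomb calls, 3 were lost without A39 replicate 2, 3 without A50 replicate 1, 1 without A50 replicate 2, 1 without A67 replicate 1, 3 without A67 replicate 2 and 3 without A95 replicate 1 (adjusted p up to 0.147), and none stayed in every such fit. UHRF1 was not called without A39 replicate 2, A50 replicate 1, A50 replicate 2, A67 replicate 2, A95 replicate 1 or A95 replicate 2 (adjusted p up to 0.148).

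Of 21 cholesterol genes 1 rose, where 1.74% of all genes did: EBP (0.81 ± 0.14 SE, adjusted p = 0.023), a sterol isomerase. Of 27 glycolysis and hypoxia genes 6 fell, against 2.44% of all genes: ALDOC, aldolase C (-0.98 ± 0.16 SE, adjusted p = 0.0165), NDRG1 (-0.92 ± 0.18 SE, adjusted p = 0.0309), ADM, adrenomedullin (-0.80 ± 0.14 SE, adjusted p = 0.0218), BNIP3L, a mitophagy receptor (-0.68 ± 0.15 SE, adjusted p = 0.0456), PFKFB3 and P4HA1. The glycolytic enzymes GAPDH, PGK1 and LDHA were not called. EBP was not called without A39 replicate 2, A50 replicate 1, A67 replicate 1, A67 replicate 2 or A95 replicate 1 (adjusted p up to 0.0962). Of the 6 glycolysis and hypoxia calls, 3 were lost without A39 replicate 1, 6 without A39 replicate 2, 6 without A50 replicate 1, 3 without A50 replicate 2, 3 without A67 replicate 1, 6 without A67 replicate 2 and 6 without A95 replicate 1 (adjusted p up to 0.157), and none stayed in every such fit.

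Of 42 axon guidance and adhesion receptor genes, 1 rose and 1 fell, near the 1.74% and 2.44% of all genes: ITGA6, an integrin subunit for laminin (0.87 ± 0.15 SE, adjusted p = 0.0218), and ROBO1, a Slit receptor (-0.47 ± 0.10 SE, adjusted p = 0.0449). ITGA8, an integrin subunit, read 10.19, 10.92, 10.87 and 5.19 in the early arrays and 5.41, 5.08, 5.41 and 8.39 in the late arrays. It was high in 3 early arrays and in A95 replicate 2, low in A50 replicate 2 and the other 3 late arrays, and was not called (-3.22 ± 1.28 SE, adjusted p = 0.232). AMZ2P1, a pseudogene seen after the values, was 6.79 in A50 replicate 2 and above 12 in the other early arrays, with 5.79 to 6.48 in the late arrays, and was not called (-4.73 ± 1.10 SE, adjusted p = 0.0528). None of 15 clustered protocadherins, neuronal adhesion proteins whose promoters are switched one by one, was called, where 4.18% of all genes were. Of the 15, 14 had a positive difference, with a list median of 0.485. That median was 0.286 without A39 replicate 1, 0.789 without A50 replicate 2, 0.836 without A67 replicate 1 and 0.149 without A95 replicate 2. A95 replicate 2 lay a median of 1.80 above early and the other 3 late arrays 0.149. PCDHB5 read 10.80, 9.91, 10.99 and 6.20 in the early arrays and 6.13, 5.68, 5.66 and 6.75 in the late arrays. PCDHB2 read 5.80, 6.31, 6.27 and 7.90 in the early arrays and 8.60, 7.86, 7.95 and 10.40 in the late arrays. PCDHB5 was low in A50 replicate 2 and all late arrays and was not called (-3.42 ± 0.93 SE, adjusted p = 0.0852). PCDHB2 was highest in A95 replicate 2 and was not called either (2.13 ± 0.61 SE, adjusted p = 0.097). Of the 2 adhesion calls, 2 were lost without A39 replicate 2, 2 without A50 replicate 1, 1 without A50 replicate 2, 2 without A67 replicate 1, 2 without A67 replicate 2 and 2 without A95 replicate 1 (adjusted p up to 0.161), and none stayed in every such fit.

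**Figure D3:**
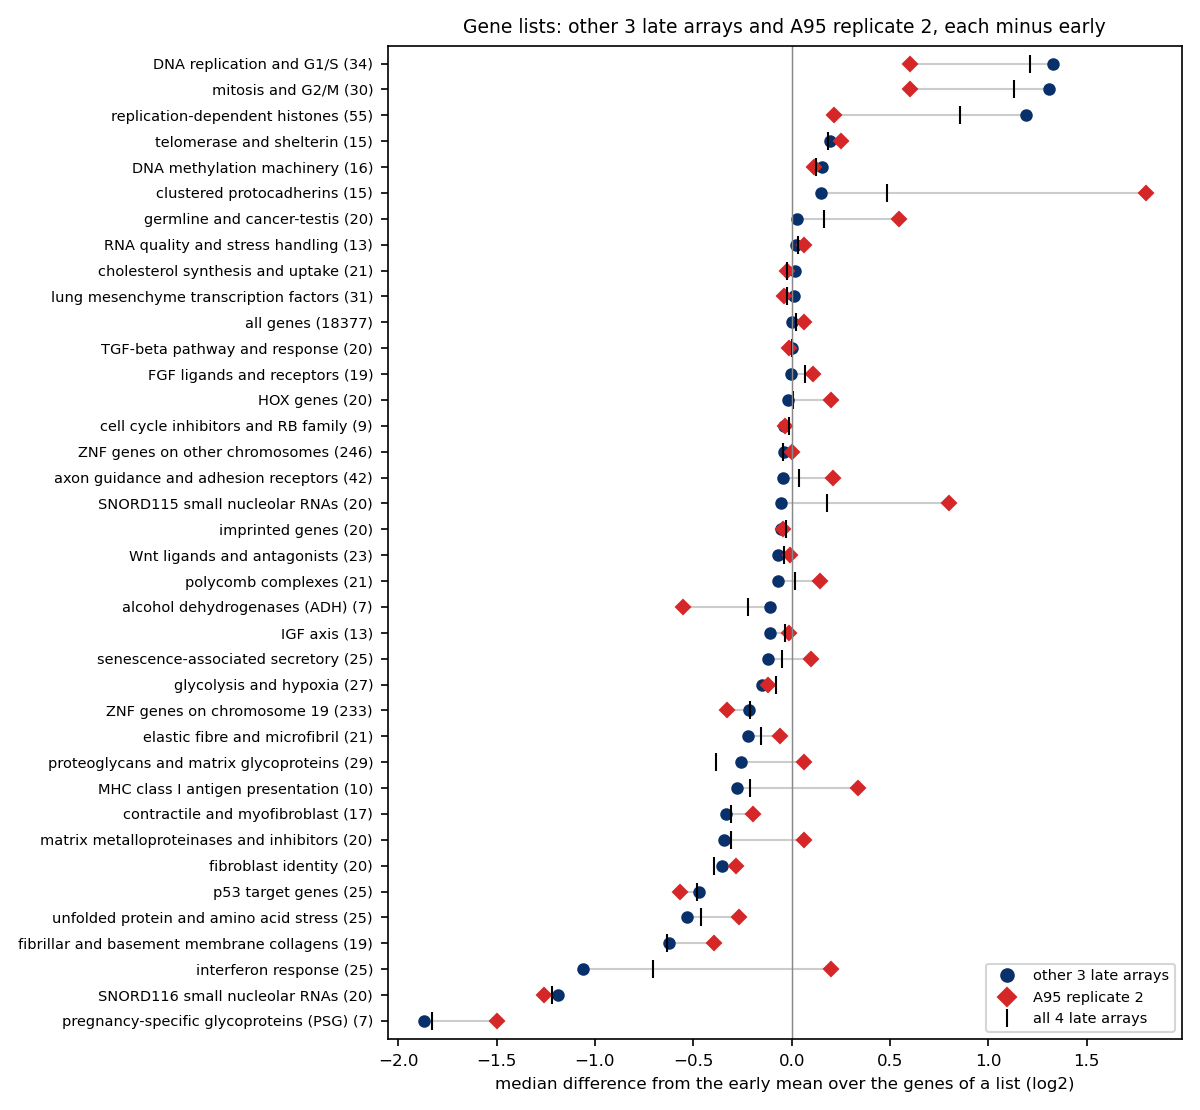
Median difference from the early mean, on the log2 scale, over the genes of each list for the other 3 late arrays, for A95 replicate 2 and for all 4 late arrays; numbers in brackets count genes. The lists are ordered by the other 3 arrays; A95 replicate 2 lies apart from them in DNA replication (0.60 against 1.33), interferon response (0.20 against -1.06) and clustered protocadherins (1.80 against 0.149).

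Families looked at after the values were seen lay on few chromosomes. SNORD116 genes are small nucleolar RNAs of an imprinted cluster in 15q11 expressed from the paternal copy. Of 20 measured 16 fell, against 2.44% of all genes, with a median of -1.22. SNORD116-1 read 7.51, 7.97, 7.77 and 7.64 in the early arrays and 5.95, 6.20, 6.15 and 4.62 in the late arrays, at -1.99 ± 0.32 (SE, adjusted p = 0.017), with A95 replicate 2 the lowest array. A95 replicate 2 followed late here, at a median of -1.26 against -1.19 for the other 3 and a median position of 1.12 over the 17 called without it. PWAR6, a transcript of the same region, fell by 1.56 ± 0.16 (SE, adjusted p = 0.00378). MKRN3, an imprinted gene of that region and 1 of 20 imprinted genes on the list, was the only one of those 20 called, at 0.58 ± 0.13 (SE, adjusted p = 0.0414). Over all genes 4.18% were called. None of 20 SNORD115 genes, the adjoining family, was called. Their mean level was low, at 3.87 to 4.77 by array, against 5.39 to 7.04 for SNORD116. The filter on dim rows left no SNORD115 gene, so a change in that family cannot be judged. The copies are near-identical, so single SNORD116 genes are uncertain. Of the 16 SNORD116 calls, 1 was lost without A39 replicate 1, 8 without A39 replicate 2, 8 without A50 replicate 1, 2 without A50 replicate 2, 2 without A67 replicate 1, 3 without A67 replicate 2, 7 without A95 replicate 1 and 1 without A95 replicate 2 (adjusted p up to 0.146), and 8 stayed in every such fit. MKRN3 was not called without A39 replicate 1, A39 replicate 2, A50 replicate 1, A67 replicate 1, A67 replicate 2 or A95 replicate 1 (adjusted p up to 0.149).

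On chromosome 19, 34 of 233 zinc finger (ZNF) genes fell and none rose, against 7 of 246 ZNF genes elsewhere and 2.44% of all genes. The medians were -0.21 and -0.0437, the difference between them was not tested, and closely related members may share probes. ZNF347 read 7.82, 7.67, 7.78 and 7.56 in the early arrays and 6.01, 5.86, 6.06 and 5.81 in the late arrays. ZNF846 read 6.76, 6.30, 6.62 and 6.98 in the early arrays and 5.40, 4.98, 4.69 and 5.03 in the late arrays. Both were lower in every late array, at -1.77 ± 0.11 (SE, adjusted p = 0.000665) for ZNF347 and -1.64 ± 0.19 (SE, adjusted p = 0.00513) for ZNF846. ZNF737 (-2.12 ± 0.27 SE, adjusted p = 0.00769) was also called. In A95 replicate 2 the median of the chromosome 19 genes was -0.327 against -0.215 in the other late arrays, and its median position over the 56 called without it was 1.11. Of the 34 ZNF calls, 12 were lost without A39 replicate 1, 28 without A39 replicate 2, 28 without A50 replicate 1, 11 without A50 replicate 2, 16 without A67 replicate 1, 24 without A67 replicate 2 and 28 without A95 replicate 1 (adjusted p up to 0.147), and 6 stayed in every such fit. Promoters of ZNF347 and ZNF846 are given because they moved together; CG is set in capitals, and each run holds the 250 bases before the start, 5′ to 3′ along the gene.
ZNF347 promoter, GRCh38.p14, chr19:53159054-53159303, minus strand: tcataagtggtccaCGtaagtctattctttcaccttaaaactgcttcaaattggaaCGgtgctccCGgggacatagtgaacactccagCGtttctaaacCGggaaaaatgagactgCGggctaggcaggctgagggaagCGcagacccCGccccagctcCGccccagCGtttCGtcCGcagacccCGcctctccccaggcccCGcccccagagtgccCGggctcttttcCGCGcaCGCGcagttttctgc
ZNF846 promoter, GRCh38.p14, chr19:9768739-9768988, minus strand: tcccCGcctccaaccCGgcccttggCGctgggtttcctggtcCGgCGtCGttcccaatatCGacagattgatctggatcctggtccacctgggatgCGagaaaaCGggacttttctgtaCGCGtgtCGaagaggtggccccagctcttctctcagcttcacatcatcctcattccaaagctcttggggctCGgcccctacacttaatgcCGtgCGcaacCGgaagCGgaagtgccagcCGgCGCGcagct
Of 29 called chromosome 19 ZNF genes with a window, 82.8% had an observed to expected CpG of 0.6 or more, against 79% of 200 on the chromosome and 67.6% of all genes.

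Of the 7 pregnancy-specific glycoproteins, immunoglobulin-like placental proteins of chromosome 19, 5 fell, against 2.44% of all genes. All 7 had a negative difference. PSG3 read 10.02, 8.97, 9.20 and 8.20 in the early arrays and 6.02, 6.21, 5.76 and 7.33 in the late arrays, at -2.77 ± 0.42 (SE, adjusted p = 0.0142), with A95 replicate 2 highest among the late arrays. PSG genes are near copies and single ones are uncertain. Of 7 alcohol dehydrogenases 3 fell, against 2.44% of all genes. They were ADH1A, ADH1B and ADH1C, which are near copies on chromosome 4. ADH1C read 8.40, 7.31, 7.77 and 7.65 in the early arrays and 4.87, 5.17, 5.11 and 5.85 in the late arrays, at -2.53 ± 0.27 (SE, adjusted p = 0.00376), and ADH1B changed by -2.20 ± 0.31 (SE, adjusted p = 0.0117). Of the 5 PSG calls, 4 were lost without A39 replicate 2, 4 without A50 replicate 1, 3 without A67 replicate 2 and 3 without A95 replicate 1 (adjusted p up to 0.0983), and 1 stayed in every such fit. Of the 3 ADH calls, 1 was lost without A39 replicate 2, 1 without A50 replicate 1, 1 without A67 replicate 2 and 1 without A95 replicate 1 (adjusted p up to 0.0695), and 2 stayed in every such fit.

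Of 189 microRNA genes on the array 1 was called, where 4.18% of all genes were. MIR21, looked at after the values were seen, read 9.12, 9.79, 9.55 and 9.11 in the early arrays and 8.32, 7.72, 7.07 and 8.31 in the late arrays, at -1.54 ± 0.29 (SE, adjusted p = 0.0267). Late arrays were all lower. The row is of the gene and does not separate precursor from mature RNA, so no level of an arm is given. The main mature product is shown with its seed, bases 2 to 8, in capitals.
hsa-miR-21-5p, GRCh38.p14, chr17:59841273-59841294, plus strand: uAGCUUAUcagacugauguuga
Its call was lost without A39 replicate 2, at an adjusted p of 0.102, and was kept in 4 of the 8 fits with 1 array left out.

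**Figure D4:**
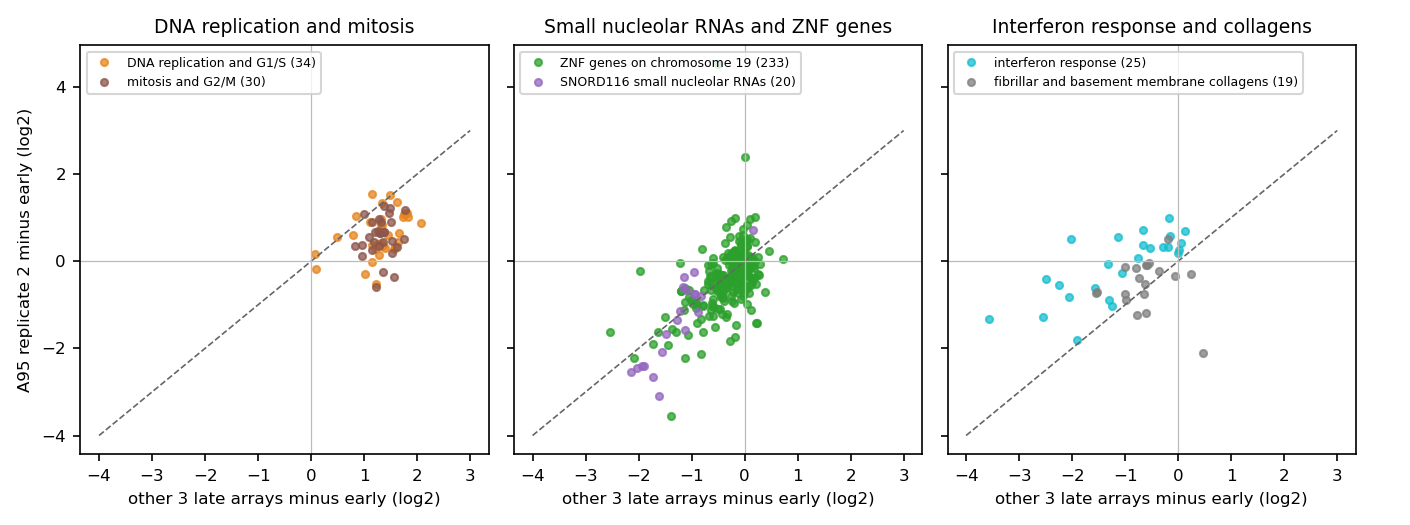
For each gene of a list, the difference of A95 replicate 2 from the early mean (vertical, log2) against that of the other 3 late arrays (horizontal, log2), in 3 panels; the dashed line marks equal differences. Most replication and mitosis genes lie below the line, SNORD116 and chromosome 19 ZNF genes on both sides of it, and most interferon genes above it.

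Among called genes, A95 replicate 2 lay farthest towards early in 6 rises and 6 falls. The rises were SLCO1B3, ESM1, SSX1, CCNE2, RFC3 and ERCC6L, and the falls MAN1A1, BST1, PSG3, SLC16A4, IRAG1 and NUPR1. BST1, an ectoenzyme that makes cyclic ADP-ribose, read 9.49, 9.03, 9.10 and 9.34 in the early arrays and 6.52, 6.13, 6.23 and 8.79 in the late arrays. Its A95 replicate 2 value came close to early, and it changed by -2.32 ± 0.52 (SE, adjusted p = 0.0467), or by -2.95 (adjusted p = 0.000754) without that array. SLC16A4, a monocarboxylate transporter family member, was 9.32 in A95 replicate 2 and 7.47 to 7.75 in the other late arrays. NUPR1, a stress-induced chromatin protein, was 9.03 there, inside the early range of 8.88 to 9.84, and changed by -1.55 ± 0.35 (SE, adjusted p = 0.0467). RFC3, a clamp loader subunit (1.41 ± 0.29 SE, adjusted p = 0.0376), ERCC6L, a mitotic helicase (1.49 ± 0.29 SE, adjusted p = 0.0307), and IRAG1, a target of cGMP-dependent kinase (-2.20 ± 0.41 SE, adjusted p = 0.0265), had their A95 replicate 2 values at 9.61, 8.35 and 8.58. With 1 array left out, BST1 and SLC16A4 kept their calls only without A95 replicate 2 (adjusted p up to 0.142 and 0.145). RFC3, ERCC6L and NUPR1 kept theirs in 2 of the 8 such fits each, and IRAG1 in 3 (adjusted p up to 0.152).

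Genes called only without A95 replicate 2 were led by ELAPOR2, an endosomal membrane protein, which read 5.68, 5.85, 5.83 and 7.72 in the early arrays and 11.14, 10.55, 10.44 and 6.47 in the late arrays. A95 replicate 2 lay between the groups, as A50 replicate 2 did, and the difference was 4.44 (adjusted p = 0.00389) without it and 3.38 ± 0.95 (SE, adjusted p = 0.0937) with it. RTN1, a reticulon (3.85, adjusted p = 0.035), GALNT3, which starts mucin-type glycosylation (3.08, adjusted p = 0.0466), BCHE, butyrylcholinesterase (2.82, adjusted p = 0.0297), OR51B4, an olfactory receptor (2.18, adjusted p = 0.0243), and H1-1, a linker histone (2.11, adjusted p = 0.0493), were the other 5 rises. Falls without it were LITAF (-3.63, adjusted p = 0.0171), IFITM1, HTATIP2 (-3.25, adjusted p = 0.00796), WFDC1 (-3.14, adjusted p = 0.0351), HSPB8, a small heat shock protein (-2.73, adjusted p = 0.0247), and NEDD4L, a ubiquitin ligase (-2.71, adjusted p = 0.0202). A95 replicate 2 was 10.69 for LITAF, 9.49 for HTATIP2, 9.67 for HSPB8 and 9.36 for NEDD4L, all within or above the early range.

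A95 replicate 2 also held values apart from those of the other 7 arrays compared. It lay at least 1 log2 above all 7 other arrays for 180 genes and below them for 241, against at most 24 and 4 in any other array. These genes were picked for this array and are given as a description. Of the 6 arrays left out, hTERT B passage 96 replicate 1 also lay at least 1 log2 beyond those 7 arrays, on the same side, for 111 of the 180 (61.7%) and 141 of the 241 (58.5%), and the other 5 for at most 8 and 2. It did so for all 12 genes named by this distance, among them IL2 (9.48), CD80 (9.66) and TEK (6.79). IL2, the T cell growth factor, was 10.19 there and 2.37 to 3.6 in the other 7 arrays. MAGEB2, a cancer-testis gene, was 9.95 against 4.02 to 4.96, and CD80, a costimulatory ligand, 10.26 against 5.42 to 5.79. OR4D11, an olfactory receptor (11.13 against 5.89 to 6.38), and ZNF671 (10.98 against 5.84 to 6.55) were high too. On the low side TEK, an angiopoietin receptor, was 6.77 against 9.36 to 10.76, and KCNE4, a potassium channel subunit, 6.16 against 8.95 to 9.83. NXPH4 (7.0 against 9.72 to 10.26), SDHAF3 (4.69 against 7.35 to 8.41), SPACA4 (4.91 against 7.45 to 7.73) and TMEM35A (5.94 against 8.25 to 10.59) were low as well. None of these genes was called with all 8 arrays, and TEK and ZNF671 were called lower without A95 replicate 2 (-0.85, adjusted p = 0.0213 and -0.50, adjusted p = 0.0375).

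MIRLET7D, the gene of a let-7 microRNA, was 11.46 in A95 replicate 2 and 6.08 to 6.79 in the other 7 arrays compared, and in hTERT B passage 96 replicate 1 it was 10.7. Both mature arms of this hairpin are shown because the row is the microRNA gene in which A95 replicate 2 lies farthest from those 7 arrays; seeds, bases 2 to 8, are in capitals, and the row separates neither arm.
hsa-let-7d-5p, GRCh38.p14, chr9:94178841-94178862, plus strand: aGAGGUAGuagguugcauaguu
hsa-let-7d-3p, GRCh38.p14, chr9:94178895-94178916, plus strand: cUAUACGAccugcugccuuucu

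**Figure D5:**
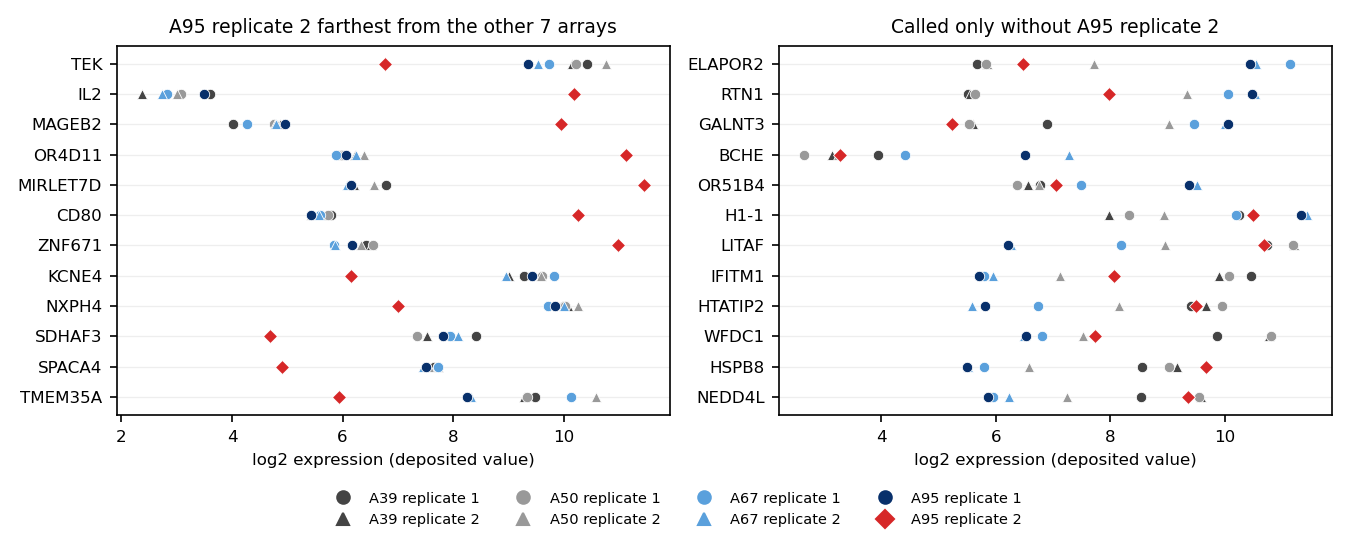
Deposited log2 expression by array for the genes in which A95 replicate 2 lies farthest from the other 7 arrays (left) and for genes called only without it (right), 1 point per array. On the left A95 replicate 2 lies outside the other 7 arrays plotted, as at 10.19 for IL2. On the right it lies within or near the early range, as at 9.67 for HSPB8. For H1-1 it is at 10.49, above all early points and above A67 replicate 1 (10.19).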

How the data were processed

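RNA of the 14 samples was labelled across the whole transcript and hybridized to Affymetrix human Gene 1.0 ST arrays, 1 array per sample, per the labels. A single table of 28869 rows was deposited, and its range is that of a log2 scale. The steps behind these values (background, scaling, software) are not stated in the labels used here. The values were used as deposited, with no filter and no further scaling, and the number of arrays limits their precision. Gene names came from the array's annotation table, renewed through RefSeq gene IDs. A single symbol was found for 19310 rows (19279 matched by ID), several for 1752 and none for 7807, and genes were named only from rows with 1 symbol. The brightest row over the 8 arrays stood for its gene.

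Late minus early was fitted by limma (3.58.1, R 4.3.3) with moderated variances from 6 residual and 3.24 prior degrees of freedom, two-sided, with Benjamini-Hochberg adjustment over all rows and a threshold of 0.05. The fit was also tested on simulated data. It was repeated without A95 replicate 2, and lists were described by counts and medians. The genes named were the 12 largest called changes each way without overlap, up to 4 called members of each of 36 lists (or the 2 largest, as values), 9 fixed genes, 6 each way by the place of A95 replicate 2 towards early, 6 each way outside the other arrays, and 6 each way called only without it. The members, lists and named-gene rule were chosen with earlier results of these data known, and the families of small nucleolar RNAs, histones, ZNF, PSG and ADH genes, MIR21, AMZ2P1, GABARAPL1 and TSPAN12 after the values were seen. Alternatives were leaving out arrays, blocks for replicate number and passage, label groups, 1 averaged pair, 2 other scalings, a filter on dim rows, 1 row per gene, a robust prior and array weights. Replicate numbers did not pair the arrays: differences between replicates correlated at -0.199 to 0.196 between labels.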

Additional observations from a re-analysis of the deposited data

Results flagged for a closer look

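In groups of 4 arrays, 1 array was set apart where its gap to the nearest of the other 3, divided by the range of all 4, was above Dixon's 95% critical value. This held for 65 of the 368 groups examined over named genes and gene lists. Chance alone sets apart about 5% of groups, and the genes named for their A95 replicate 2 values had been picked for such a gap. A95 replicate 2 accounted for 35 of the 65 and A50 replicate 2 for 15, A39 replicate 1 for 7, A67 replicate 1 for 5, A67 replicate 2 for 2 and A50 replicate 1 for 1.

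Among the late arrays, values are given as that of A95 replicate 2 against the range of the other 3. A95 replicate 2 was high for PDGFD (5.38 against 4.70 to 4.80), EFEMP1 (11.35 against 10.83 to 10.87), TGFB2 (8.34 against 6.56 to 6.79), EBP (10.12 against 9.98 to 10.00), ALDOC (7.69 against 7.01 to 7.12) and PECAM1 (8.44 against 6.57 to 6.77). It was also high for MYH3 (8.46 against 6.98 to 7.11), EGR1 (10.91 against 10.00 to 10.14), TERT (12.13 against 11.04 to 11.18), ITGA8 (8.39 against 5.08 to 5.41), BST1 (8.79 against 6.13 to 6.52) and SLC16A4 (9.32 against 7.47 to 7.75). Further high values were IFITM1 (8.06 against 5.70 to 5.95), HSPB8 (9.67 against 5.50 to 5.79) and NEDD4L (9.36 against 5.87 to 6.23). The array was low for COL12A1 (10.88 against 11.33 to 11.36), LUM (9.15 against 9.91 to 10.06), B2M (11.41 against 11.56 to 11.59), FGF7 (7.46 against 9.02 to 9.12), DKC1 (10.22 against 10.75 to 10.85) and ADM (10.79 against 11.29 to 11.36). Other low values were ELAPOR2 (6.47 against 10.44 to 11.14) and GALNT3 (5.24 against 9.46 to 10.06). Among genes picked for lying outside the other 7 arrays, IL2 (10.19 against 2.73 to 3.5), MAGEB2 (9.95 against 4.28 to 4.96), OR4D11 (11.13 against 5.89 to 6.25), MIRLET7D (11.46 against 6.08 to 6.16), CD80 (10.26 against 5.42 to 5.60) and ZNF671 (10.98 against 5.84 to 6.17) were high and TEK (6.77 against 9.36 to 9.74), NXPH4 (7.0 against 9.72 to 10.00), SDHAF3 (4.69 against 7.81 to 8.09) and SPACA4 (4.91 against 7.45 to 7.73) were low.

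Within the early arrays, A50 replicate 2 was high for ST6GALNAC5 (8.02 against 6.06 to 6.18), ACTC1 (8.63 against 6.16 to 6.33), TMEM35A (10.59 against 9.28 to 9.48), ELAPOR2 (7.72 against 5.68 to 5.85) and RTN1 (9.33 against 5.52 to 5.63). It was low for RGCC (8.24 against 10.00 to 10.17), COL12A1 (11.69 against 12.23 to 12.28), IFIT3 (9.13 against 9.94 to 10.02), SPRY1 (7.66 against 8.38 to 8.52), KRT18 (9.77 against 11.42 to 11.54) and ITGA8 (5.19 against 10.19 to 10.92). Other genes low in this array were NUPR1 (8.88 against 9.75 to 9.84) and IFITM1 (7.13 against 9.90 to 10.45). ITGA8, IFITM1, COL12A1, ELAPOR2 and the interferon list were set apart in both groups, in A50 replicate 2 among early arrays and in A95 replicate 2 among late ones.

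A39 replicate 1 stood apart for PRIM1 (9.43 against 8.54 to 8.63), TP53INP1 (8.71 against 9.69 to 9.77), SVEP1 (10.98 against 11.39 to 11.46), PODN (8.07 against 7.90 to 7.91) and MAGEB2 (4.02 against 4.76 to 4.86). A50 replicate 1 stood apart for ADM (11.98 against 11.99 to 11.99). A67 replicate 1 stood apart for GABRB1 (9.45 against 9.90 to 9.91), COL5A2 (10.21 against 10.72 to 10.82) and PPARG (9.68 against 9.15 to 9.24). A67 replicate 2 stood apart for FOXF1 (10.16 against 10.04 to 10.06). The gap of ADM spans 0.01 log2 and is the rounding step of the table. Over gene lists, as mean departures from the gene means in log2, A39 replicate 1 stood apart in DNA replication and G1/S (-0.0429 against -0.784 to -0.667), A67 replicate 1 stood apart in fibrillar and basement membrane collagens (-0.572 against -0.233 to -0.187), A50 replicate 2 stood apart in interferon response (-0.419 against 0.636 to 0.846), A95 replicate 2 stood apart in interferon response (0.323 against -0.728 to -0.622), A39 replicate 1 stood apart in HOX genes (-0.176 against 0.00238 to 0.0329), A67 replicate 1 stood apart in cholesterol synthesis and uptake (0.0266 against -0.0215 to -0.0167), A95 replicate 2 stood apart in fibroblast identity (-0.287 against -0.18 to -0.16), A67 replicate 2 stood apart in blood cells (-0.249 against 0.0107 to 0.0461) and A50 replicate 2 stood apart in pregnancy-specific glycoproteins (PSG) (0.551 against 0.861 to 0.921).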

How the results depend on the processing

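The count of 977 called rows ranged from 119 to 2466 when 1 array was left out. It was 13 without both A39 arrays, 138 without A50, 100 without A67 and 272 without A95, and 119 with A39 replicate 2 and A50 replicate 1 as 1 array. It was 0 with 14 arrays in 7 label groups and 215 with 8 arrays in 4 label groups. With a replicate block it was 629, with passage as a random block 1988 and with array weights 5121. The passage block raised the count and so was not a stricter fit than the main one. Quantile normalization, centring on medians, dropping dim rows, 1 row per gene and a robust prior gave 701 to 1365. Centring on medians moved the split from 424 higher and 553 lower to 225 and 476.

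Without A95 replicate 2 the 2466 rows ranged from 272 to 2841 when another array was left out. They were 861 with the pair averaged, 1758 with a replicate block, 5293 with passage as a random block and 5429 with array weights. The correlation within labelled passage was estimated at -0.42 in the fit with the passage block. A negative correlation narrows the SE, so the 5293 calls do not show a result made firmer by allowing for passage.

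The 91 called list members ranged from 9 to 177 when 1 array was left out. They were 1 without both A39 arrays, 15 without A50, 8 without A67, 32 without A95, 9 with the pair averaged, 0 with 14 arrays in 7 label groups, 19 in 4 label groups, 62 with a replicate block, 157 with the passage block and 286 with array weights. The 3316 rows that do not overlap ranged from 3763 to 6112, and were 5965, 5798, 7130 and 7275 without both arrays of A39, A50, A67 and A95. A smaller group is less likely to overlap by its size. Other causes were not tested. None of the 92 called genes picked by the naming rule changed direction under any alternative run. Other called genes named here were not part of that count. Dim rows have no detection call, so small differences there cannot be judged.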

Other observations

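The 6 arrays left out of the comparison can be placed on another scale, over the 320 genes called higher and the 449 called lower. It runs from 0 at the early mean to 1 at the mean of all late arrays compared. The scale used above for each late array left that array out of the calls and of the late mean, so medians on both are not directly comparable. On the present scale A95 replicate 2, which took part in the calls and in the late mean, had medians of 0.865 and 0.942. Among the hTERT A arrays of passage 58, replicate 1 had medians of -0.0433 and 0.196 and replicate 2 had 0.866 and 0.794, so the array titled A58 replicate 1 lay by early and the other by late. The hTERT B arrays of passage 96 had medians of 0.873 and 0.884 in replicate 1 and 0.38 and 0.186 in replicate 2. The primary arrays of passage 19 had 0.688 and 0.5 in replicate 1 and 0.426 and 0.0735 in replicate 2. In each of these 3 labels the duplicates differed from each other, and labels were taken as given.

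Called genes lay on all chromosomes measured, at 2.13% of genes on chromosome 21 to 6.27% on chromosome 15. On chromosome 19, 54 genes fell and 10 rose. On chromosome 15, 26 fell, of which 16 were SNORD116 genes, and 10 rose.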
